A study of Homo sapiens with 60 samples.

Results

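SW1783 cells given wortmannin were compared with SW1783 cells given the vehicle, across all genes expressed. SW1783 is an established human astrocytoma line, here grown in Leibovitz L-15 medium with 10% FBS. The 6 libraries compared are the samples whose treatment label reads wortmannin (10 µM, 24 h, 3 libraries) and those labelled as vehicle, the solvent DMSO without drug (24 h, 3 libraries). They are 6 of the 60 libraries of a series of 22 treatment groups, which otherwise holds extracts of medicinal plants and fungi and the drugs LY294002 and thioridazine, each drug at 10 µM for 24 h with 3 libraries. The sample labels put the DMSO at 0.1% and the series text at 2%, and the sources used here do not settle the difference. Whether the drug samples held the same amount of solvent is not recorded in the sources used here. All samples come from a single cell line, so the results describe that line. The sources do not say whether replicates were separate cultures, so p-values rest on the spread among libraries, which may be technical.

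Wortmannin is a fungal steroid metabolite that binds phosphatidylinositol 3-kinases (PI3K) covalently and blocks them. PI3K makes the membrane lipid PIP3 when growth factor receptors are engaged, PIP3 recruits the kinase AKT, and AKT restrains FOXO transcription factors and feeds the growth-controlling kinase mTOR. At higher doses wortmannin also inhibits related kinases, among them mTOR, the DNA repair kinase DNA-PK (gene PRKDC), PI4-kinases and the mitotic kinase PLK1. Glial tumours often carry an overactive PI3K pathway.

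Counts summed to 25954452, 27065585 and 27000962 in wortmannin libraries and to 29869689, 28932255 and 27374780 in vehicle libraries. The first principal component of the 6 libraries held 39.5% of the variance and separated the groups. Titles of all samples name the same batch. The sample codes, though, place the vehicle libraries in a set of their own and all 3 drugs in another, so set and treatment cannot be told apart against vehicle, while comparisons between drugs stay within a set. Levels are CPM, a gene's counts scaled to a common library size, which are not divided by gene length, so levels are not compared between genes. A gene is called changed where its adjusted p is under 0.05 in edgeR's quasi-likelihood test, and "rose" and "fell" are used only of such genes. A change is a log2 fold change of wortmannin over vehicle ± SE with n = 3 libraries per group. The SE and p rest on a spread estimated from all 60 libraries of the series, not from these 6 alone. Positions follow GENCODE 29 on GRCh38.

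Of 17919 genes tested, 31.7% were called: 2754 rose (15.4%) and 2932 fell (16.4%). Without adjustment, 7152 genes had a p under 0.05 (39.9%). Most changes were small. At least 1.5-fold, 628 genes rose (3.5%) and 199 fell (1.11%), and at least 2-fold 205 rose (1.14%) and 51 fell (0.285%). The libraries of the groups did not overlap for 8804 genes (49.1%). The median change of all genes was 0.02. In bulk RNA, fewer cells with a transcript and less of it per cell cannot be told apart. In 276 genes (1.54%) all wortmannin libraries lay above each of the other 57 libraries of the series, and in 131 genes (0.731%) below them.

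**Figure D1:**
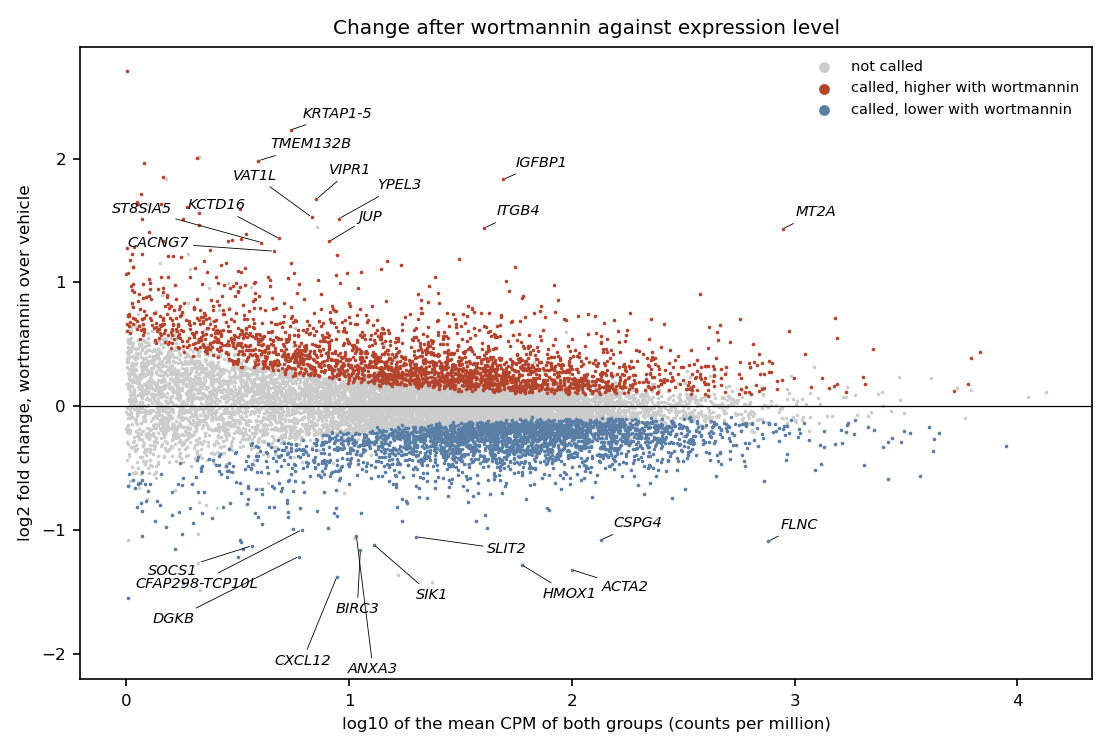
Log2 fold change of wortmannin over vehicle (vertical axis) against the log10 mean CPM of both groups (horizontal axis) for 13887 genes averaging 1 CPM or more, 2 further genes lying outside the axes. Red points rose, blue points fell, grey points were not called; the 24 labelled genes are the 12 largest rises and 12 largest falls among genes of at least 5 CPM in a group, from KRTAP1-5 at 2.23 to CXCL12 at -1.38.

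Among genes of at least 5 CPM, the largest rises included genes of secreted and membrane proteins. IGFBP1, a secreted protein that holds insulin-like growth factors (chromosome 7, 45888357 to 45893668, plus strand), had 75.0, 82.4 and 73.6 CPM in wortmannin libraries, against 21.7, 22.5 and 20.6 CPM in vehicle libraries. Each wortmannin library was over 3 times the highest vehicle library, and the change was 1.83 ± 0.08 (adjusted p = 2.88e-24). ITGB4, the integrin subunit that anchors epithelial cells to laminin (chromosome 17, 75721328 to 75757818, plus strand), had 58.0, 58.2 and 61.3 CPM in wortmannin libraries, against 22.3, 20.8 and 22.4 CPM in vehicle libraries, a change of 1.44 ± 0.09. VIPR1, a receptor for the neuropeptide VIP, had 10.4, 12.1 and 10.1 CPM in wortmannin libraries, against 3.32, 3.54 and 3.34 CPM in vehicle libraries (1.67 ± 0.13). VAT1L, ST8SIA5, a sialyltransferase of brain gangliosides, JUP, the junction protein plakoglobin, and CACNG7, an auxiliary subunit of AMPA receptors and calcium channels, rose by 1.53 ± 0.11, 1.32 ± 0.17, 1.33 ± 0.11 and 1.253 ± 0.14. In these 4 genes wortmannin had the highest mean of all 22 groups. KRTAP1-5 and TMEM132B rose most (2.23 ± 0.14 and 1.98 ± 0.17); KRTAP1-5 has near-identical copies among keratin-associated genes, so its level is uncertain.

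The largest falls among genes of at least 5 CPM include HMOX1, ACTA2 and BIRC3, described with their lists, and the genes that follow. CXCL12, a chemokine of stromal cells (chromosome 10, 44370165 to 44386493, minus strand), had 4.82, 5.18 and 4.65 CPM in wortmannin libraries, against 12.2, 13.3 and 12.5 CPM in vehicle libraries, a change of -1.38 ± 0.08. The wortmannin libraries lay well below every vehicle library. CSPG4, the proteoglycan NG2 of pericytes and glial progenitors (chromosome 15, 75674322 to 75712848, minus strand), had 89.0, 86.8 and 84.3 CPM in wortmannin libraries, against 181, 185 and 182 CPM in vehicle libraries (-1.08 ± 0.08), the lowest mean of the 22 groups. FLNC, an actin crosslinker of the filamin family, had 505, 475 and 480.3 CPM in wortmannin libraries, against 1040, 1027 and 1040 CPM in vehicle libraries (-1.09 ± 0.10). SLIT2, a repellent guidance molecule for axons, had 13.5, 12.7 and 12.9 CPM in wortmannin libraries, against 26.7, 27.1 and 27.3 CPM in vehicle libraries (-1.05 ± 0.07). DGKB, a kinase that phosphorylates diacylglycerol, SOCS1, an inhibitor of cytokine signalling, SIK1, a kinase induced by cyclic AMP, and ANXA3, an annexin, changed by -1.21 ± 0.13, -1.12 ± 0.16, -1.12 ± 0.10 and -1.04 ± 0.08. CXCL12, DGKB and ANXA3 were not called between wortmannin and either other drug. Over vehicle they changed by -1.292, -1.259 and -1.131 with LY294002, and by -1.561, -1.003 and -0.884 with thioridazine. HMOX1 and SIK1 differed from this, at -0.044 and -0.801 with LY294002 and 1.18 and 1.06 with thioridazine. Whether falls shared by the drugs come from the separate vehicle set was not tested. CFAP298-TCP10L, a readthrough of neighbouring genes, had 3.03, 2.80 and 6.40 CPM in wortmannin libraries, against 7.51, 7.93 and 9.04 CPM in vehicle libraries. Its change of -0.996 ± 0.31 was no longer called in edgeR on the 2 groups alone, nor without wortmannin replicate 1 (-0.82) or 2 (-0.77).

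**Figure D2:**
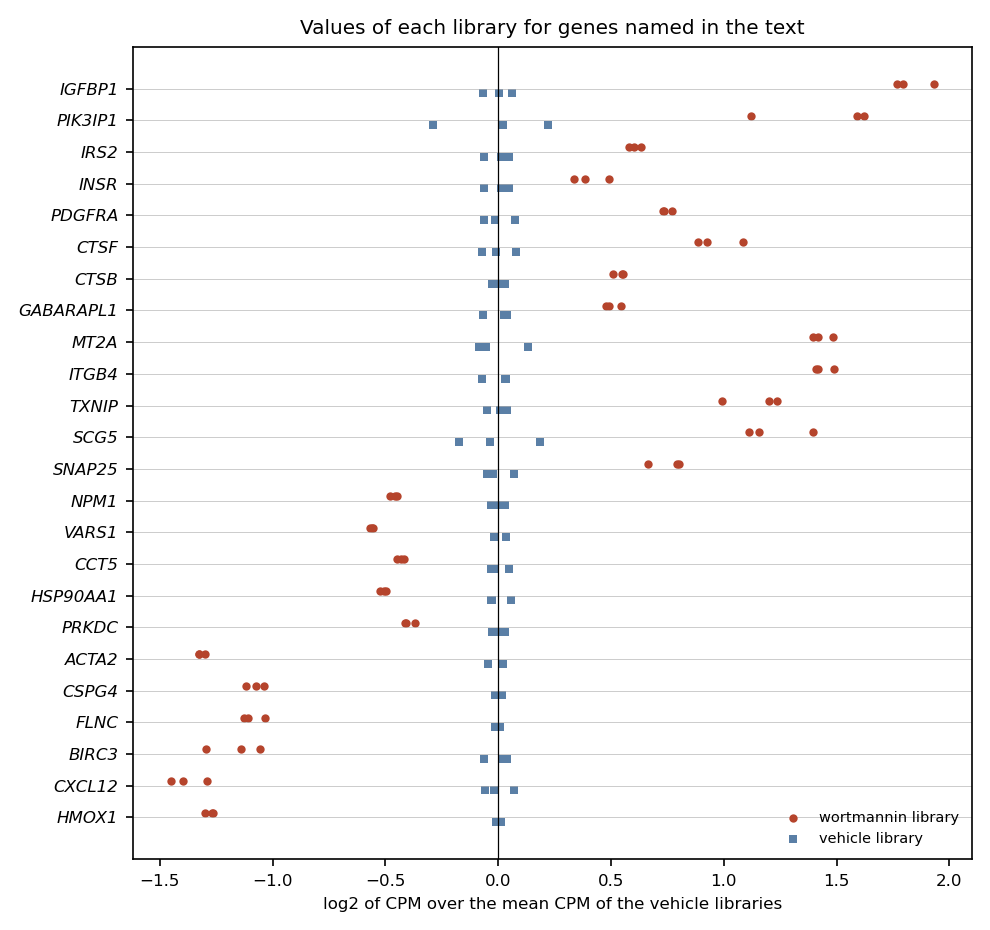
Log2 of each library's CPM over the mean CPM of the vehicle libraries (horizontal axis) for 24 genes named in the text (rows); red circles are the 3 wortmannin libraries and blue squares the 3 vehicle libraries. In every gene shown the groups do not overlap, from IGFBP1, highest with wortmannin, to HMOX1 and CXCL12, both lower with wortmannin.

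Components of the PI3K pathway itself moved in both directions. Of 29 tested of 30 listed, 7 rose and 5 fell, 41.4% called beside 31.7% of all genes, with a median change of 0.03. The transmembrane PI3K inhibitor PIK3IP1 had 2.45, 3.39 and 3.46 CPM in wortmannin libraries, against 1.14, 0.921 and 1.31 CPM in vehicle libraries, the largest change of the list (1.46 ± 0.20). DEPTOR, an mTOR-binding inhibitor, had 2.76, 3.02 and 3.46 CPM in wortmannin libraries, against 2.04, 1.70 and 1.65 CPM in vehicle libraries (0.77 ± 0.16). These negative regulators had low levels in both groups, and their libraries did not overlap. PIK3C3, the class III PI3K of autophagy and endosomes, rose by 0.44 ± 0.05, and SGK1, a kinase close to AKT, by 0.38 ± 0.05. The catalytic subunit PIK3CD fell (-0.33 ± 0.06), as did MTOR, at 135, 133 and 137 CPM in wortmannin libraries, against 166, 164 and 167 CPM in vehicle libraries (-0.29 ± 0.07), and AKT1 (-0.17 ± 0.03). The regulatory subunit PIK3R1 was at 0.02 ± 0.06 and TSC2, a brake on mTOR, at 0.03 ± 0.07, neither called. The count of falls was 3 without wortmannin replicate 3 or vehicle replicate 2, and 9 in edgeR on the 2 groups alone.

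Of the other kinases that wortmannin is known to inhibit, 9 were listed and tested, of which 1 rose and 4 fell. The share called was 55.6%, beside 31.7% of all genes. The rise was lost without wortmannin replicate 1 or 2 or vehicle replicate 1, and 2 rises were called with no filter on low counts or in edgeR on the 2 groups alone. PRKDC had 498, 499 and 513 CPM in wortmannin libraries, against 660.4, 649.9 and 678 CPM in vehicle libraries (-0.40 ± 0.09) and PLK1 124, 126 and 123 CPM in wortmannin libraries, against 179.6, 167 and 172 CPM in vehicle libraries (-0.48 ± 0.06). The wortmannin libraries were lower throughout in both genes. These are transcript levels, and kinase activity was not measured.

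Receptors and adaptors upstream of PI3K mostly rose. Among 14 tested of 16 listed, 8 rose and 3 fell, 78.6% called. IRS2, the adaptor that links insulin receptors to PI3K (chromosome 13, 109752698 to 109786568, minus strand), had 41.4, 40.7 and 42.2 CPM in wortmannin libraries, against 27.5, 28.1 and 26.0 CPM in vehicle libraries (0.60 ± 0.06). INSR, the insulin receptor, had 22.8, 25.4 and 23.6 CPM in wortmannin libraries, against 18.2, 17.3 and 18.7 CPM in vehicle libraries (0.41 ± 0.06), and IGF1R, its relative for IGF, changed by 0.27 ± 0.07. All wortmannin libraries exceeded all vehicle libraries in these genes. PDGFRA, a receptor for platelet-derived growth factor often amplified in glioma (chromosome 4, 54229097 to 54298247, plus strand), had 41.5, 40.4 and 40.4 CPM in wortmannin libraries, against 24.0, 25.6 and 23.2 CPM in vehicle libraries, a change of 0.74 ± 0.07 to the highest mean of the 22 groups. PDGFRB rose by 0.28 ± 0.06 and KIT, the stem cell factor receptor, by 0.20 ± 0.05. FGFR1 fell, at 198, 198 and 199 CPM in wortmannin libraries, against 233, 229 and 232 CPM in vehicle libraries (-0.22 ± 0.04), and AXL changed by -0.13 ± 0.04. EGFR (-0.17 ± 0.09) and ERBB2 (-0.03 ± 0.05) were not called.

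In the IGF system, 6 of 12 tested genes rose and 2 fell, 66.7% called. Beside IGFBP1, STC1, a secreted glycoprotein that blocks the protease acting on IGF-binding proteins, had 725, 721 and 658 CPM in wortmannin libraries, against 443, 424 and 424 CPM in vehicle libraries (0.70 ± 0.05). IGFBP7 had 2569, 2615 and 2640 CPM in wortmannin libraries, against 1894, 1954 and 1817 CPM in vehicle libraries (0.47 ± 0.06), and IGFBP4 changed by 0.32 ± 0.05. STC1, IGFBP7 and IGFBP4 each had their highest mean of the 22 groups with wortmannin. The genes that fell were IGFBP3, the abundant carrier of IGF in blood, at 577, 587 and 568 CPM in wortmannin libraries, against 636, 639 and 621 CPM in vehicle libraries (-0.13 ± 0.04), and STC2, a relative of STC1 (-0.20 ± 0.06). IGFBP3 was not called without wortmannin replicate 3 or vehicle replicate 1 or 2, nor STC2 without wortmannin replicate 1 or 3 or vehicle replicate 3. IGFBP5 (0.11 ± 0.07) and IGFBP2 (0.01 ± 0.16) were not called. IGF1 was below the filter, with at most 0.0746 CPM in a wortmannin library and 0.104 CPM in a vehicle library. The ligand IGF2, among the genes that rose, was also scarce. It had 0.506, 0.634 and 0.744 CPM in wortmannin libraries, against 0.208, 0.425 and 0.113 CPM in vehicle libraries (1.31 ± 0.42).

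FOXO targets, the transcripts that AKT holds down through FOXO, rose in 14 and fell in 3 of 26 tested genes, 65.4% called beside 31.7% of all genes. Their falls numbered 5 in edgeR on the 2 groups alone. YPEL3, a growth-restraining gene, had 12.9, 13.7 and 13.4 CPM in wortmannin libraries, against 4.74, 4.36 and 4.92 CPM in vehicle libraries (1.52 ± 0.10), and FOXO4 itself 15.4, 15.4 and 15.2 CPM in wortmannin libraries, against 7.16, 7.47 and 7.05 CPM in vehicle libraries (1.08 ± 0.09). KLHL24, a ubiquitin ligase adaptor, changed by 1.19 ± 0.06. TXNIP, an inhibitor of thioredoxin and glucose uptake, had 25.1, 24.5 and 21.2 CPM in wortmannin libraries, against 11.0, 10.7 and 10.3 CPM in vehicle libraries (1.15 ± 0.09). The groups did not overlap in any of these 4 genes. The 250 bases before the TXNIP start (chr1:145996580-145996829, minus strand, RefSeq on GRCh38.p14) are shown because they hold a match to the FOXO-binding letters GTAAACA, in capitals.
TXNIP: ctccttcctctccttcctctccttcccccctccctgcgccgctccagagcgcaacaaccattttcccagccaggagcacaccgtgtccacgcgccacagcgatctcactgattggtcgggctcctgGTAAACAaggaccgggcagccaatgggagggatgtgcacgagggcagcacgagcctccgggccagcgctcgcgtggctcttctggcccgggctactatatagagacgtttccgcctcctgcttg
GTAAACA, on either strand, stands in 2.98% of 35116 promoters of the same length, so a match is a description of the letters and not a mapped site. Promoter entries were found for 25 of the 27 listed FOXO targets, and how many of these hold a match was not counted.

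Lysosomal enzymes rose broadly. Of 30 lysosomal hydrolases 22 rose and 1 fell, 76.7% called, with a median change of 0.25 beside 0.02 for all genes. The fall was called in the fit without wortmannin replicate 3 but not in that without any other single library. CTSF, a cysteine protease (chromosome 11, 66563463 to 66568841, minus strand), had 29.2, 28.4 and 32.6 CPM in wortmannin libraries, against 15.3, 16.2 and 14.6 CPM in vehicle libraries (0.97 ± 0.07). CTSB, an abundant protease of the same class, had 523, 539 and 539 CPM in wortmannin libraries, against 361, 375 and 367 CPM in vehicle libraries (0.54 ± 0.04), and FUCA1, which removes fucose from glycoproteins, 29.3, 30.1 and 30.98 CPM in wortmannin libraries, against 21.97, 21.1 and 20.7 CPM in vehicle libraries (0.50 ± 0.05). Every wortmannin library exceeded every vehicle library in these. CTSD changed by 0.34 ± 0.04. The summed level of the 30 hydrolases was 4924 to 5047 CPM in wortmannin libraries and 4146 to 4151 CPM in vehicle libraries. Among 23 lysosomal membrane and regulatory genes 8 rose and 3 fell, 47.8% called. NPC2, which carries cholesterol out of the lysosome, had 212, 211 and 218 CPM in wortmannin libraries, against 141, 139.7 and 136 CPM in vehicle libraries (0.62 ± 0.05), the membrane protein LAMP1 changed by 0.26 ± 0.05, and RRAGC, a GTPase that brings mTOR to the lysosome, fell (-0.26 ± 0.06). Of 17 subunits and partners of the proton pump V-ATPase 2 rose and 0 fell, 11.8% called beside 31.7% of all genes, and 4 rose and 2 fell in edgeR on the 2 groups alone.

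Autophagy genes rose in 14 and fell in 2 of the 24 tested, 66.7% called, with a median change of 0.21. The ATG8-family genes MAP1LC3A, at 20.2, 21.2 and 21.5 CPM in wortmannin libraries, against 13.3, 13.9 and 13.7 CPM in vehicle libraries, and GABARAPL1, at 32.0, 33.2 and 31.7 CPM in wortmannin libraries, against 23.4, 21.7 and 23.2 CPM in vehicle libraries, build the autophagosome membrane and changed by 0.62 ± 0.09 and 0.51 ± 0.07. NBR1, a cargo receptor, had 165, 166 and 165 CPM in wortmannin libraries, against 117, 123 and 120.4 CPM in vehicle libraries (0.46 ± 0.04), while another cargo receptor, SQSTM1, fell, at 473, 481 and 493 CPM in wortmannin libraries, against 549, 566 and 561 CPM in vehicle libraries (-0.21 ± 0.04). ATG13 of the initiating complex and WIPI2, which binds the PIK3C3 product, rose by 0.32 ± 0.04 and 0.33 ± 0.05. Endosomal traffic genes, many of which bind phosphoinositides, moved both ways, 6 up and 6 down of 28, 42.9% called beside 31.7% of all genes. MTMR2, a phosphatase of such lipids, changed by -0.30 ± 0.04 and RAB5B, a GTPase of early endosomes, by 0.22 ± 0.04.

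**Figure D3:**
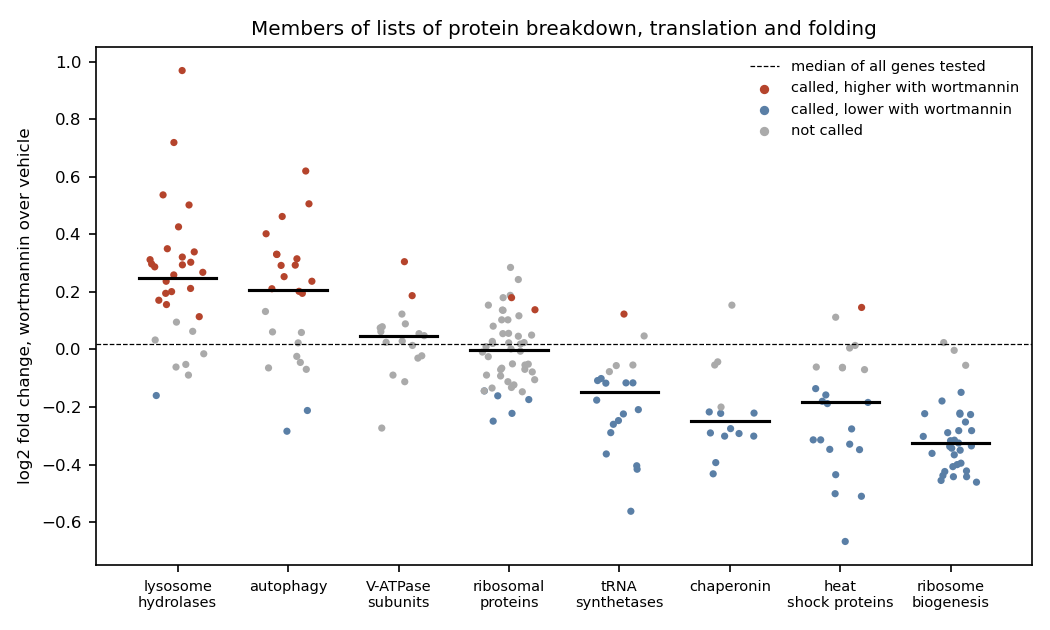
Log2 fold change of wortmannin over vehicle (vertical axis) for each tested member of 8 gene lists (columns); bars are list medians, the dashed line is the median of all genes tested, and colours give the call. Lysosomal hydrolases (median 0.25) and autophagy genes (0.21) lie mostly above 0, ribosome biogenesis genes (-0.33) below it, and ribosomal proteins around it.

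The machinery that makes ribosomes fell almost throughout. Of 33 ribosome biogenesis genes 30 fell and 0 rose, 90.9% called, with a median change of -0.33. NPM1, a nucleolar chaperone of ribosome assembly (chromosome 5, 171387116 to 171411137, plus strand), had 1120, 1097 and 1113 CPM in wortmannin libraries, against 1531, 1560 and 1495 CPM in vehicle libraries (-0.46 ± 0.05). BOP1 and RRP12, which process and export pre-ribosomes, had 67.3, 68.0 and 70.5 CPM and 77.0, 75.4 and 74.8 CPM in wortmannin libraries, against 93.1, 95.1 and 93.7 CPM and 102, 104 and 102 CPM in vehicle libraries. Groups did not overlap in these 3 genes. NOC2L and MYBBP1A, nucleolar proteins, changed by -0.40 ± 0.04 and -0.44 ± 0.04. MYC, a transcription factor that drives many such genes and stands on the same list, was not called, with 62.8, 62.2 and 66.5 CPM in wortmannin libraries, against 63.8, 61.3 and 63.4 CPM in vehicle libraries (0.02 ± 0.06). Of 48 ribosomal proteins and elongation factors 2 rose and 5 fell, 14.6% called beside 31.7% of all genes. EEF1A1, the elongation factor that delivers tRNAs, rose (0.18 ± 0.05), and RPS2 and RPL24 fell (-0.22 ± 0.07 and -0.25 ± 0.07). Rises numbered 1 in each leave-one-out fit and with RLE scaling, 9 with no filter on low counts and 10 in edgeR on the 2 groups alone. The count of their falls was 9 with no filter, 2 without wortmannin replicate 1 or 2 or any vehicle library, 3 without wortmannin replicate 3, and 17 in edgeR on the 2 groups alone.

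Long non-coding RNAs rose in 5 and fell in 0 of the 20 tested, 25% called beside 31.7% of all genes, and 2 fell in edgeR on the 2 groups alone. Among them are hosts of small nucleolar RNAs: SNHG5 had 44.3, 47.1 and 45.5 CPM in wortmannin libraries, against 26.7, 28.0 and 25.8 CPM in vehicle libraries (0.76 ± 0.11) and GAS5 84.5, 87.7 and 92.7 CPM in wortmannin libraries, against 64.3, 68.7 and 68.7 CPM in vehicle libraries (0.39 ± 0.06). ZFAS1 and SNHG6, hosts outside the list that were chosen after their values were seen, changed by 0.76 ± 0.06 and 0.79 ± 0.08. Wortmannin gave SNHG5 and GAS5 the highest mean of the 22 groups. The hosts SNHG1 (-0.14 ± 0.06), SNHG8 (0.07 ± 0.15) and SNHG12 (-0.10 ± 0.11) were not called. NORAD, which binds Pumilio proteins, rose by 0.39 ± 0.04 and EPB41L4A-AS1 by 0.56 ± 0.08. EPB41L4A-AS1 and ZFAS1 are antisense to other genes, and how strand was counted is not stated in these sources, so reads of such partners may be mixed.

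Among genes that charge tRNAs and fold new proteins, tRNA synthetases, chaperonin genes and heat shock genes mostly fell. Of 20 tRNA synthetases 15 fell and 1 rose, 80% called, the rise being lost without vehicle replicate 1 or with no filter on low counts. VARS1, the valine enzyme (chromosome 6, 31777518 to 31795953, minus strand), had 135, 136 and 137 CPM in wortmannin libraries, against 206, 198 and 199 CPM in vehicle libraries (-0.56 ± 0.05), the lowest mean of the 22 groups. FARSB and KARS1, for phenylalanine and lysine, changed by -0.42 ± 0.04 and -0.36 ± 0.04. Among 14 genes of the chaperonin that folds actin and tubulin and its prefoldin partners, 10 fell and 0 rose (1 rose with no filter or in edgeR on the 2 groups alone), CCT5 at 351, 358 and 355 CPM in wortmannin libraries, against 468, 494 and 472 CPM in vehicle libraries (-0.43 ± 0.05) and CCT7 at -0.39 ± 0.05. Of the chaperonin and prefoldin genes 71.4% were called, beside 31.7% of all genes. Of 23 heat shock genes 15 fell and 1 rose, 69.6% called, with 2 rises in edgeR on the 2 groups alone. HSP90AA1, the inducible form of the HSP90 chaperone, had 1014, 1025 and 1031 CPM in wortmannin libraries, against 1426, 1518 and 1428 CPM in vehicle libraries (-0.51 ± 0.05), its co-chaperone FKBP4 128, 128 and 129 CPM in wortmannin libraries, against 184, 180.4 and 179.6 CPM in vehicle libraries (-0.50 ± 0.04), and the small heat shock gene HSPB1 243, 252 and 254 CPM in wortmannin libraries, against 394, 398 and 396 CPM in vehicle libraries (-0.67 ± 0.08). No wortmannin library reached a vehicle library in these. Of 24 chaperones of the endoplasmic reticulum 1 rose and 6 fell, 29.2% called beside 31.7% of all genes, HSPA5 at -0.22 ± 0.05. Their rises numbered 0 without wortmannin replicate 1 or 2 or vehicle replicate 1 or 3, 2 without vehicle replicate 2, and 4 in edgeR on the 2 groups alone.

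**Figure D4:**
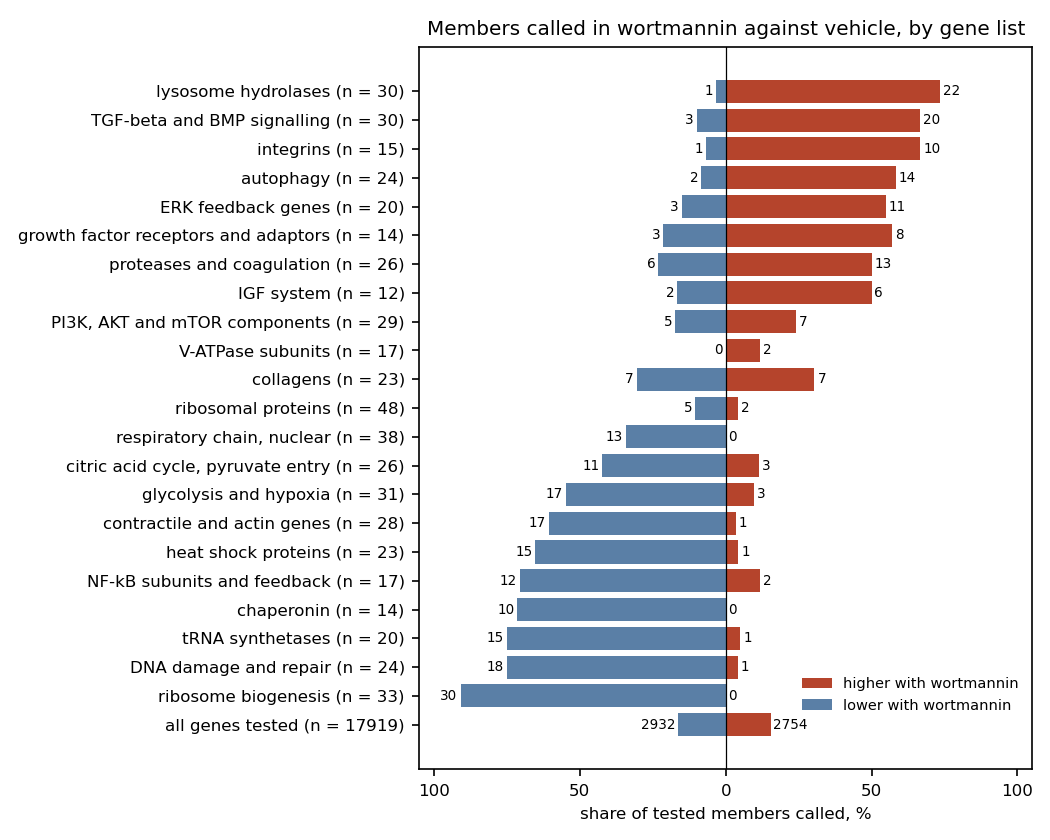
Share of tested members called (horizontal axis, %) for 22 gene lists and for all 17919 genes tested; bars to the right rose and bars to the left fell, with the number of genes at the end of each bar. Among the lists shown, which are part of 70 and were picked with values known, lysosomal hydrolases (22 of 30) have the highest share of rises and ribosome biogenesis genes (30 of 33) of falls, beside 2754 and 2932 of all genes.

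Genes of sugar breakdown fell. On the list of glycolysis and hypoxia genes 17 fell and 3 rose of 31, 64.5% called. HK1, a hexokinase (chromosome 10, 69269984 to 69401884, plus strand), had 299, 292 and 298 CPM in wortmannin libraries, against 383, 376 and 379 CPM in vehicle libraries (-0.36 ± 0.03), GPI, the next enzyme, 357, 358 and 351 CPM in wortmannin libraries, against 435, 425 and 440.4 CPM in vehicle libraries (-0.29 ± 0.03), and PFKP, which commits sugar to glycolysis, changed by -0.32 ± 0.03. NDRG1, a stress- and hypoxia-induced gene, rose (0.49 ± 0.06). Of 26 genes of the citric acid cycle and pyruvate entry 11 fell and 3 rose, 53.8% called. The citrate synthase gene CS fell by 0.28 on the log2 scale and PDHA1, of pyruvate dehydrogenase, by the same amount, while PDK2, the kinase that turns that complex off, had 24.7, 27.6 and 27.9 CPM in wortmannin libraries, against 16.3, 16.2 and 15.2 CPM in vehicle libraries (0.75 ± 0.06). PDK2 was higher in each wortmannin library than in any vehicle library. Nuclear genes of the respiratory chain fell in 13 and rose in 0 of the 38 tested, 34.2% called beside 31.7% of all genes, CYCS, cytochrome c, at -0.30 ± 0.06. The falls numbered 8 without wortmannin replicate 2 and 7 without vehicle replicate 2. Rises numbered 1 without wortmannin replicate 2 or vehicle replicate 1 or 2 or by DESeq2, 3 with no filter and 7 in edgeR on the 2 groups alone. Of 13 genes of the mitochondrial genome 1 rose, MT-CO3 (0.39 ± 0.10), with 2 rises without wortmannin replicate 3, 5 in edgeR on the 2 groups alone and 9 with no filter on low counts.

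Lipid, amino acid and one-carbon genes were mixed. Of 25 genes of cholesterol synthesis 12 rose and 4 fell (2 fell with no filter), 64% called. MSMO1 was at 0.54 ± 0.06 and LSS, the cyclase of that pathway, at -0.41 ± 0.05. SREBF2, the transcription factor of the pathway, had 109.8, 107 and 114 CPM in wortmannin libraries, against 88.9, 84.2 and 90.9 CPM in vehicle libraries (0.33 ± 0.04). Of 16 genes of fatty acid synthesis 3 rose and 6 fell, 56.2% called, ACLY at -0.17 ± 0.03. Fatty acid oxidation genes rose in 2 and fell in 5 of 21, 33.3% called beside 31.7% of all genes, with 1 rise without vehicle replicate 1. Among 18 genes of serine and one-carbon metabolism 3 rose and 7 fell, 55.6% called, MTHFD1, which interconverts folates, at 168, 172 and 169.7 CPM in wortmannin libraries, against 225, 227 and 232 CPM in vehicle libraries (-0.43 ± 0.04), the lowest mean of the 22 groups. The falls numbered 4 when no filter on low counts was applied, and the rises 5 in edgeR on the 2 groups alone. ATF4 targets of the amino acid response were split, 7 up and 8 down of 22, 68.2% called. ASNS, asparagine synthetase, was at 0.28 ± 0.05 and DDIT3 at -0.47 ± 0.08. Of 20 amino acid transporters 8 rose and 5 fell, 65% called. SLC38A2, the glutamine carrier induced by amino acid lack, had 513, 499.6 and 495 CPM in wortmannin libraries, against 325, 309.6 and 331 CPM in vehicle libraries (0.64 ± 0.05). SLC1A3 and SLC1A1, glutamate transporters, had 36.8, 35.5 and 37.8 CPM and 58.2, 60.6 and 60.8 CPM in wortmannin libraries, against 19.8, 22.7 and 23.1 CPM and 35.8, 37.0 and 36.0 CPM in vehicle libraries. Each had its highest mean of the 22 groups with wortmannin. SLC43A2, a carrier of large neutral amino acids, fell (-0.59 ± 0.05).

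DNA replication, division and repair genes were lower. S-phase genes fell in 20 of 24 (83.3% called) and mitosis genes in 20 of 23 (87% called), with 0 rises. The share of all genes called was 31.7%. Of 24 DNA damage and repair genes 18 fell and 1 rose, 79.2% called. FANCI, of the Fanconi anaemia pathway, had 60.9, 57.1 and 58.2 CPM in wortmannin libraries, against 87.2, 88.9 and 86.1 CPM in vehicle libraries (-0.57 ± 0.05), the nuclease gene EXO1 changed by -0.51 ± 0.07, XRCC3, of homologous recombination, by -0.44 ± 0.06 and PARP1, a sensor of strand breaks, by -0.31 ± 0.03. Cell cycle brakes and their partners were mixed, 7 up and 3 down of 14, 71.4% called. CDKN1A, the inhibitor p21, had 34.1, 38.4 and 38.0 CPM in wortmannin libraries, against 22.7, 25.7 and 22.5 CPM in vehicle libraries (0.64 ± 0.08), CDKN1B, the inhibitor p27, changed by 0.24 ± 0.06, and CDK6, a kinase that drives entry into the cycle, had 75.3, 73.0 and 71.8 CPM in wortmannin libraries, against 113, 106 and 109 CPM in vehicle libraries (-0.58 ± 0.08). p53 targets rose in 8 and fell in 5 of the 22 tested, 59.1% called, TP53INP1 at 0.86 ± 0.12 and AEN at -0.49 ± 0.06. Leaving out any 1 library except wortmannin replicate 2 gave 2 or 3 falls. In the BCL2 family 5 rose and 7 fell of 18, 66.7% called, the falls numbering 4 without vehicle replicate 1. The death-promoting genes BMF and BCL2L11 rose by 0.79 ± 0.13 and 0.48 ± 0.10, and MCL1, which opposes death, by 0.25 ± 0.04.

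Genes of the contractile actin apparatus, many of them targets of serum response factor, fell. Of 28 tested of 29 listed, 17 fell and 1 rose (2 rose in edgeR on the 2 groups alone). The share called was 64.3%, beside 31.7% of all genes, with a median change of -0.24. ACTA2, smooth muscle actin (chromosome 10, 88935074 to 88991339, minus strand), had 57.2, 57.01 and 58.1 CPM in wortmannin libraries, against 145, 145 and 139 CPM in vehicle libraries (-1.32 ± 0.06). ACTG2, the enteric smooth muscle actin (chromosome 2, 73892314 to 73919865, plus strand), had 3.89, 3.62 and 3.76 CPM in wortmannin libraries, against 7.92, 7.47 and 7.02 CPM in vehicle libraries (-0.99 ± 0.11). The wortmannin libraries of both genes were close together and far below every vehicle library. ACTG1, a cytoskeletal actin, fell to 2987, 3010 and 2909 CPM in wortmannin libraries, against 4413, 4380 and 4319 CPM in vehicle libraries (-0.56 ± 0.05). Actin genes are similar in sequence, so reads may be shared between them. MYL9, a myosin light chain, changed by -0.52 ± 0.07, CNN1, calponin, by -0.74 ± 0.14, and MYH9, non-muscle myosin, by -0.29 ± 0.06. CALD1, caldesmon, rose (0.16 ± 0.04), and VCL (0.04 ± 0.05), TPM1 (-0.02 ± 0.04) and MYLK (0.03 ± 0.06) were not called. The RefSeq start of ACTG2 lies inside the GENCODE 29 span given above. The 250 bases before that RefSeq start (chr2:73892758-73893007, plus strand, GRCh38.p14) are shown because they hold 2 CArG boxes, the sequence that serum response factor binds, in capitals.
ACTG2: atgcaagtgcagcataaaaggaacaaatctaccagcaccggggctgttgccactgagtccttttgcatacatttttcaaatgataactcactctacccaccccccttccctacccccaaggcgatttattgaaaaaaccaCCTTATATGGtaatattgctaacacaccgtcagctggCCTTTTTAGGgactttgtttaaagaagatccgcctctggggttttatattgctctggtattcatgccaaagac
CArG boxes stand in 1.16% of the 35116 promoters of this length. Promoter entries were found for 24 of the 29 listed contractile genes, and how many of these hold a CArG box was not counted.

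Targets of the YAP coactivator went both ways, 5 up and 5 down of 18, 55.6% called beside 31.7% of all genes. CCN2, a matricellular growth factor, rose to 318, 343 and 294 CPM in wortmannin libraries, against 197, 209 and 197 CPM in vehicle libraries (0.66 ± 0.11), while CCN1, of the same family, fell (-0.42 ± 0.12). F3, tissue factor, had 104, 106 and 90.1 CPM in wortmannin libraries, against 155, 155 and 149 CPM in vehicle libraries (-0.61 ± 0.07), and WWC1, a member of the Hippo pathway, changed by -0.59 ± 0.05.

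Adhesion receptors rose. Of 15 tested integrin genes 10 rose and 1 fell, 73.3% called. Beside ITGB4, the collagen-binding subunits ITGA11 and ITGA1 had 227, 227 and 234 CPM and 116, 117 and 115 CPM in wortmannin libraries, against 138, 130.2 and 141 CPM and 73.0, 71.1 and 71.0 CPM in vehicle libraries. ITGB5, a vitronectin receptor subunit, had 159, 158 and 159 CPM in wortmannin libraries, against 95.0, 97.2 and 96.1 CPM in vehicle libraries (0.73 ± 0.04), and ITGA2 changed by 0.91 ± 0.08. The groups did not overlap in these genes. The fibronectin receptor subunit ITGA5 was the gene that fell (-0.20 ± 0.04), and 2 fell in edgeR on the 2 groups alone. Collagens were divided, 7 up and 7 down of 23, 60.9% called. COL13A1, a transmembrane collagen, had 32.5, 31.5 and 33.8 CPM in wortmannin libraries, against 15.9, 15.2 and 16.5 CPM in vehicle libraries (1.04 ± 0.07), COL4A1, of basement membranes, changed by 0.30 ± 0.05, and COL27A1, a fibrillar collagen, had 8.28, 7.23 and 8.66 CPM in wortmannin libraries, against 13.9, 13.7 and 16.2 CPM in vehicle libraries (-0.86 ± 0.09). The falls numbered 4 without wortmannin replicate 2. Of 31 matrix glycoproteins and matrix-modifying genes 8 rose and 6 fell, 45.2% called. LOX, which crosslinks collagen, rose (0.48 ± 0.04), and TNC, tenascin C, had 793, 771 and 760.2 CPM in wortmannin libraries, against 1054, 1034 and 1056 CPM in vehicle libraries (-0.44 ± 0.07). SERPINH1, the collagen chaperone, changed by -0.46 ± 0.04.

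Secreted proteases, their inhibitors and coagulation genes rose in 13 and fell in 6 of the 26 tested, 73.1% called. MMP1, a collagenase (chromosome 11, 102789920 to 102798160, minus strand), had 109, 120.1 and 104.6 CPM in wortmannin libraries, against 57.5, 66.3 and 60.5 CPM in vehicle libraries (0.86 ± 0.07), and MMP2, a gelatinase, 595, 622 and 601 CPM in wortmannin libraries, against 426, 417 and 427 CPM in vehicle libraries (0.52 ± 0.04). TFPI, the inhibitor of tissue factor, had 98.4, 93.7 and 86.5 CPM in wortmannin libraries, against 53.2, 54.4 and 51.6 CPM in vehicle libraries (0.81 ± 0.05), which stood beside the lower F3 given above. SERPINE2, an inhibitor of thrombin, and TIMP1, an inhibitor of metalloproteases, rose by 0.61 ± 0.04 and 0.71 ± 0.07. TFPI, SERPINE2 and MMP2 had their highest means of the 22 groups with wortmannin.

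TGF-beta and BMP signalling genes rose in 20 and fell in 3 of the 30 tested, 76.7% called, with a median of 0.33. The ligand BMP6 had 3.03, 2.27 and 3.16 CPM in wortmannin libraries, against 0.865, 0.921 and 0.976 CPM in vehicle libraries (1.61 ± 0.21). FST, follistatin, which binds activins, changed by 1.21 ± 0.23. LTBP2 and LTBP1, of the latent TGF-beta binding family, had 77.7, 79.0 and 75.2 CPM and 230.1, 229 and 234 CPM in wortmannin libraries, against 42.0, 43.3 and 41.0 CPM and 169, 167 and 171 CPM in vehicle libraries. The receptor gene TGFBR2 rose (0.42 ± 0.04). The genes that fell were the ligands TGFB3 (-0.51 ± 0.07) and INHBE (-1.18 ± 0.32, under 1 CPM in each group on average) and the follistatin relative FSTL3 (-0.21 ± 0.06). Among Wnt genes 11 rose and 3 fell of 28, 50% called, the secreted antagonists SFRP2 at 66.8, 70.2 and 69.3 CPM in wortmannin libraries, against 38.4, 33.8 and 35.8 CPM in vehicle libraries (0.93 ± 0.07) and DKK3 at 0.33 ± 0.03, and the receptor FZD1 at 0.36 ± 0.04. Notch genes rose in 2 and fell in 1 of the 15 tested, 20% called beside 31.7% of all genes. NOTCH1 had 40.5, 43.0 and 40.1 CPM in wortmannin libraries, against 59.4, 58.2 and 56.5 CPM in vehicle libraries (-0.49 ± 0.08). Notch falls numbered 2 by DESeq2, 3 with no filter and 4 in edgeR on the 2 groups alone. Axon guidance genes rose in 6 and fell in 7 of 30, 43.3% called, with NRP1 at 0.28 ± 0.04, SEMA7A at -0.48 ± 0.04 and EPHA2 at -0.36 ± 0.04. The falls numbered 11 in edgeR on the 2 groups alone.

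Feedback genes of the ERK pathway, which growth factor receptors drive alongside PI3K, rose in 11 and fell in 3 of the 20 tested, 70% called. The transcription factor ETV1 had 110.1, 113 and 107 CPM in wortmannin libraries, against 55.2, 55.0 and 57.3 CPM in vehicle libraries (0.98 ± 0.04), and its relative ETV4 15.9, 16.8 and 15.5 CPM in wortmannin libraries, against 8.99, 8.39 and 10.1 CPM in vehicle libraries (0.81 ± 0.09). DUSP4 and DUSP6, phosphatases that switch ERK kinases off, rose by 0.56 ± 0.05 and 0.62 ± 0.06. Immediate early genes were mixed, 5 up and 6 down of 20, 55% called, with FOSL1 at -0.48 ± 0.10. Their rises numbered 2 without vehicle replicate 3, and 3 without any wortmannin library, without vehicle replicate 1, by DESeq2 or with no filter on low counts. Of 27 growth factor genes 7 rose and 5 fell, 44.4% called. FGF7 had 46.8, 46.0 and 42.4 CPM in wortmannin libraries, against 26.7, 25.6 and 26.2 CPM in vehicle libraries (0.79 ± 0.05), NRG1, neuregulin, 12.7, 12.8 and 12.4 CPM in wortmannin libraries, against 20.2, 20.0 and 19.1 CPM in vehicle libraries (-0.65 ± 0.07), and KITLG, the ligand of KIT, changed by -0.40 ± 0.05.

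NF-kB subunits and feedback genes fell in 12 and rose in 2 of the 17 tested, 82.4% called, with 1 rise without wortmannin replicate 2. BIRC3, an inhibitor of cell death that NF-kB induces (chromosome 11, 102317450 to 102339403, plus strand), had 7.04, 7.46 and 6.32 CPM in wortmannin libraries, against 14.8, 15.9 and 15.8 CPM in vehicle libraries (-1.16 ± 0.09). TRAF1, an adaptor of TNF receptors, had 5.56, 6.79 and 6.17 CPM in wortmannin libraries, against 12.1, 10.7 and 11.4 CPM in vehicle libraries (-0.88 ± 0.08), and NFKB2, a subunit, 27.1, 26.6 and 26.4 CPM in wortmannin libraries, against 34.2, 35.2 and 34.7 CPM in vehicle libraries (-0.38 ± 0.05). All wortmannin libraries lay below all vehicle libraries in these genes. Of 12 tested chemokines 1 rose and 2 fell, 25% called beside 31.7% of all genes. Their falls numbered 1 without vehicle replicate 1 or 2 or in edgeR on the 2 groups alone. CCL2, which attracts monocytes, had 59.8, 62.4 and 57.6 CPM in wortmannin libraries, against 36.4, 35.6 and 36.1 CPM in vehicle libraries (0.73 ± 0.08), opposite in direction to CXCL12. Of 16 cytokines and colony-stimulating factors 6 rose and 4 fell, 62.5% called, IL11 at 148, 163 and 153 CPM in wortmannin libraries, against 96.2, 106 and 104.9 CPM in vehicle libraries (0.59 ± 0.07) and CSF1 at -0.44 ± 0.05. Interferon genes were balanced, 7 up and 6 down of 30, 43.3% called. OASL had 5.13, 5.67 and 5.43 CPM in wortmannin libraries, against 11.9, 12.2 and 7.84 CPM in vehicle libraries (-0.98 ± 0.17), with vehicle replicate 3 below the other vehicle libraries, and OAS3 changed by -0.57 ± 0.13. STAT2, a mediator of interferon signals, rose by 0.50 ± 0.09. In the prostaglandin pathway 5 rose and 2 fell of 12, 58.3% called, PTGS2, cyclooxygenase, at 0.30 ± 0.07.

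Metal-binding metallothioneins rose. These small cysteine-rich proteins store zinc and copper and are induced through metal response elements. Of 9 listed, 5 passed the filter, and 4 of them rose and 0 fell, so the count covers the expressed copies only. That is 80% called, beside 31.7% of all genes. MT2A (chromosome 16, 56608199 to 56609497, plus strand) had 1260, 1339 and 1276 CPM in wortmannin libraries, against 523, 460.4 and 451 CPM in vehicle libraries (1.43 ± 0.12), and MT1E 42.3, 43.6 and 44.7 CPM in wortmannin libraries, against 25.7, 25.7 and 23.0 CPM in vehicle libraries (0.81 ± 0.11). MT1F rose at a low level, with 1.71, 1.08 and 1.26 CPM in wortmannin libraries, against 0.588, 0.602 and 0.45 CPM in vehicle libraries. MT1X had 21.7, 21.03 and 22.9 CPM in wortmannin libraries, against 18.6, 17.9 and 18.5 CPM in vehicle libraries (0.26 ± 0.08, adjusted p = 0.0142) and was not called without wortmannin replicate 3 (0.23). MT1A was not called (0.60 ± 0.53). The copies are similar, so reads may be shared between them. The bases before the starts of MT2A (chr16:56608334-56608583, plus strand) and MT1X (chr16:56682220-56682469, plus strand), RefSeq on GRCh38.p14, are shown because both hold several matches to the metal response element core, TGCACNC or TGCGCNC on either strand, in capitals.
MT2A: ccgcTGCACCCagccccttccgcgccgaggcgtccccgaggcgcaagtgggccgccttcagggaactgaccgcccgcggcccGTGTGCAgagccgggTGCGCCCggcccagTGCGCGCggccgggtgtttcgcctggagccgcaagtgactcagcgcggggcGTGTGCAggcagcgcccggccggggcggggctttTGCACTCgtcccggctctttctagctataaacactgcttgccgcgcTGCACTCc
MT1X: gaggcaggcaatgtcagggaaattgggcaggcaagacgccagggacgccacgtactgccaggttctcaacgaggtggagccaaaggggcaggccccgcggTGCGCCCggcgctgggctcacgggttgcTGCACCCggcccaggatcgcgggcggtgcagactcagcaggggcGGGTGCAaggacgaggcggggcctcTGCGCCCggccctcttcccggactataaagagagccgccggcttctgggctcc
MT2A held 7 matches and MT1X 4. At least 1 match stands in 24.8% of 35116 promoters and at least 4 in 0.37%, and promoter entries were found for 3 of the 9 listed metallothioneins. Zinc transporters were called in 23.5% of 17 tested genes, with 1 rise and 3 falls, against 2 rises without vehicle replicate 3 and 5 falls in edgeR on the 2 groups alone. SLC39A14, a zinc and iron importer, fell (-0.26 ± 0.06), and SLC30A5, which loads zinc into the secretory pathway, rose (0.18 ± 0.04).

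Antioxidant genes moved both ways. Of 26 NRF2 targets 7 rose and 7 fell, 53.8% called. HMOX1, heme oxygenase, which breaks down heme (chromosome 22, 35380361 to 35394214, plus strand), had 34.99, 34.9 and 34.2 CPM in wortmannin libraries, against 85.0, 83.9 and 83.5 CPM in vehicle libraries (-1.28 ± 0.07), the lowest mean of the 22 groups. GCLM, of glutathione synthesis, changed by -0.42 ± 0.04, while AKR1C1, a reductase with similar copies, rose (0.60 ± 0.07). The falls numbered 12 in edgeR on the 2 groups alone. Genes of iron and heme handling rose in 5 and fell in 4 of the 18 tested, 50% called. Their falls numbered 2 without wortmannin replicate 2, vehicle replicate 1 or vehicle replicate 3. Peroxide-removing genes rose in 5 and fell in 2 of 22, 31.8% called beside 31.7% of all genes. Their rises numbered 3 without wortmannin replicate 3 or vehicle replicate 2. Their falls numbered 0 without wortmannin replicate 1, 1 without wortmannin replicate 3 or any vehicle library or with no filter, and 5 in edgeR on the 2 groups alone. Among those that rose was GLRX, glutaredoxin, at 0.47 ± 0.06.

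Several genes of neural secretion rose, while ion channels and G protein-coupled receptors moved both ways. Of 20 neurosecretory genes listed, 9 passed the filter, of which 5 rose and 0 fell, 55.6% called beside 31.7% of all genes. SCG5, a chaperone of prohormone processing (chromosome 15, 32641676 to 32697098, plus strand), had 11.4, 13.9 and 11.8 CPM in wortmannin libraries, against 5.16, 6.02 and 4.69 CPM in vehicle libraries (1.23 ± 0.12), SCG2, secretogranin, changed by 0.51 ± 0.10 and NPTX2, a synaptic pentraxin, by 0.41 ± 0.08. Ion channels rose in 6 and fell in 3 of the 27 tested, 33.3% called beside 31.7% of all genes. KCNMA1, a calcium-activated potassium channel, had 101, 96.1 and 98.2 CPM in wortmannin libraries, against 142, 139.5 and 144 CPM in vehicle libraries (-0.53 ± 0.04). PIEZO2, a mechanosensitive channel, was at 0.56 ± 0.09. The rises of ion channels numbered 3 without vehicle replicate 3, and their falls 6 in edgeR on the 2 groups alone. Of 27 G protein-coupled receptors 6 rose and 7 fell, 48.1% called. ADGRG1, an adhesion receptor of neural progenitors, had 216, 208 and 212 CPM in wortmannin libraries, against 356, 344 and 358 CPM in vehicle libraries (-0.74 ± 0.04), and F2R, the thrombin receptor, rose (0.40 ± 0.04).

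Among the remaining lists, glucocorticoid-responsive genes rose in 8 and fell in 3 of the 16 tested, 68.8% called beside 31.7% of all genes. KLF9 was at 0.76 ± 0.06 and CRISPLD2 at -0.82 ± 0.06. Circadian genes rose in 6 and fell in 5 of 18, 61.1% called. BMAL1, a core clock activator, had 5.72, 6.45 and 5.62 CPM in wortmannin libraries, against 8.61, 9.21 and 8.22 CPM in vehicle libraries (-0.55 ± 0.10). Keratin and keratin-associated genes rose in 6 and fell in 2 of 13, 61.5% called. Their falls ranged from 1 to 3 over the alternatives, with 1 fall, for example, without wortmannin replicate 1 or 3 or vehicle replicate 1 or 3, by DESeq2 or with no filter. Genes of hexose sensing rose in 6 and fell in 1 of 11, 63.6% called, with ARRDC3 at 0.47 ± 0.05 and 0 falls without wortmannin replicate 3 or vehicle replicate 3. LXR targets rose in 1 and fell in 3 of 11, 36.4% called beside 31.7% of all genes, with ABCA1, a cholesterol exporter, at -0.38 ± 0.08. They fell in 1 without wortmannin replicate 1 or 2 or vehicle replicate 1, and rose in 2 without wortmannin replicate 1 or in edgeR on the 2 groups alone. AhR targets rose in 2 and fell in 1 of 9, 33.3% called beside 31.7% of all genes, with the repressor AHRR at 0.57 ± 0.09. Histone genes rose in 5 and fell in 2 of 17, 41.2% called, with H2AX at -0.32 ± 0.07.

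Comparison with the other drugs of the same sample-code set showed which changes differed from those of LY294002, a synthetic PI3K inhibitor, and of thioridazine, a phenothiazine antipsychotic, at the same dose and time. Wortmannin differed from LY294002 in 2931 genes (16.4%), 1575 higher (8.79%) and 1356 lower (7.57%), and from thioridazine in 6937 (38.7%), 3554 higher (19.8%) and 3383 lower (18.9%). Ribosome biogenesis genes, lower than vehicle in 30 cases, were higher with wortmannin than with LY294002 in 11 and lower in 1 of 33. Autophagy genes were lower with wortmannin than with LY294002 in 13 and higher in 1 of 24. FOXO targets were lower with wortmannin than with LY294002 in 14 and higher in 0 of 26, with a median difference of -0.23. Of 28 contractile genes 11 were lower and 0 higher with wortmannin than with LY294002, with a median difference of -0.14: ACTA2 averaged 57.4 ± 0.583 CPM with wortmannin and 94.2 ± 4.88 CPM with LY294002 (SD, n = 3 each), a difference of -0.71 ± 0.06. Proteases and coagulation genes were higher in 16 of 26 and lower in 0, MMP1 at 111 ± 7.97 CPM with wortmannin and 62.9 ± 12.4 CPM with LY294002 (0.82 ± 0.07). TGF-beta and BMP genes were higher in 13 of 30 and lower in 1, and growth factor genes higher in 13 and lower in 1 of 27. NRF2 targets were lower in 14 and higher in 2 of 26. Against thioridazine, contractile genes went the other way, higher with wortmannin in 26 of 28 and lower in 0, with a median difference of 0.51. S-phase genes were higher in 24 of 24 and ribosome biogenesis genes higher in 10 and lower in 2 of 33. FOXO targets were lower with wortmannin than with thioridazine in 15 and higher in 4 of 26. Cholesterol synthesis genes were lower than with thioridazine in 25 of 25, with a median difference of -1.29, ATF4 targets lower in 21 and higher in 0 of 22, and lysosomal hydrolases lower in 20 and higher in 1 of 30.

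The genes called in the same direction against vehicle, LY294002 and thioridazine numbered 262 higher (1.46%) and 134 lower (0.748%). These comparisons share the wortmannin libraries and are not independent. ANGPTL4, an inhibitor of lipoprotein lipase, had 36.7, 38.6 and 36.1 CPM with wortmannin and averaged 22.5 ± 4.16 CPM with LY294002, 12.6 ± 1.26 CPM with thioridazine and 22.8 ± 0.207 CPM with vehicle (SD, n = 3 each). CYP24A1, which breaks down vitamin D (chromosome 20, 54153449 to 54173973, minus strand), had 24.8, 29.9 and 24.9 CPM with wortmannin and averages of 14.7 ± 0.497, 5.61 ± 0.868 and 14.2 ± 0.85 CPM with LY294002, thioridazine and vehicle. The wortmannin libraries of both genes lay above all others of the 4 groups. CCL2 was higher with wortmannin than with LY294002 by 0.81 ± 0.08 and than with thioridazine by 3.27 ± 0.10. KCTD16, an auxiliary subunit of GABA-B receptors, and KRTAP2-3 were also apart on the high side. On the low side, HMOX1 averaged 34.7 ± 0.427 CPM with wortmannin, 81.7 ± 4.39 CPM with LY294002, 191 ± 3.80 CPM with thioridazine and 84.1 ± 0.757 CPM with vehicle. PLCD1, a phospholipase C, and DISP2, a member of the dispatched family, were lower than with LY294002, with differences of -0.41 ± 0.09 and -0.49 ± 0.12. ATF3, a stress-induced transcription factor, had 1.48, 1.86 and 2.01 CPM in wortmannin libraries, against 2.28, 3.29 and 2.10 CPM in vehicle libraries and was not called against vehicle without wortmannin replicate 1 or vehicle replicate 2. STK33, a kinase, at -0.47 ± 0.13 against LY294002, was not called there without wortmannin replicate 3 or LY294002 replicate 3. ATP6V0E2-AS1, an antisense RNA (-0.44 ± 0.12), was not called there without LY294002 replicate 1. Without wortmannin replicate 1 or 2, or LY294002 replicate 2, the genes apart on the low side numbered 80, 77 and 83.

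**Figure D5:**
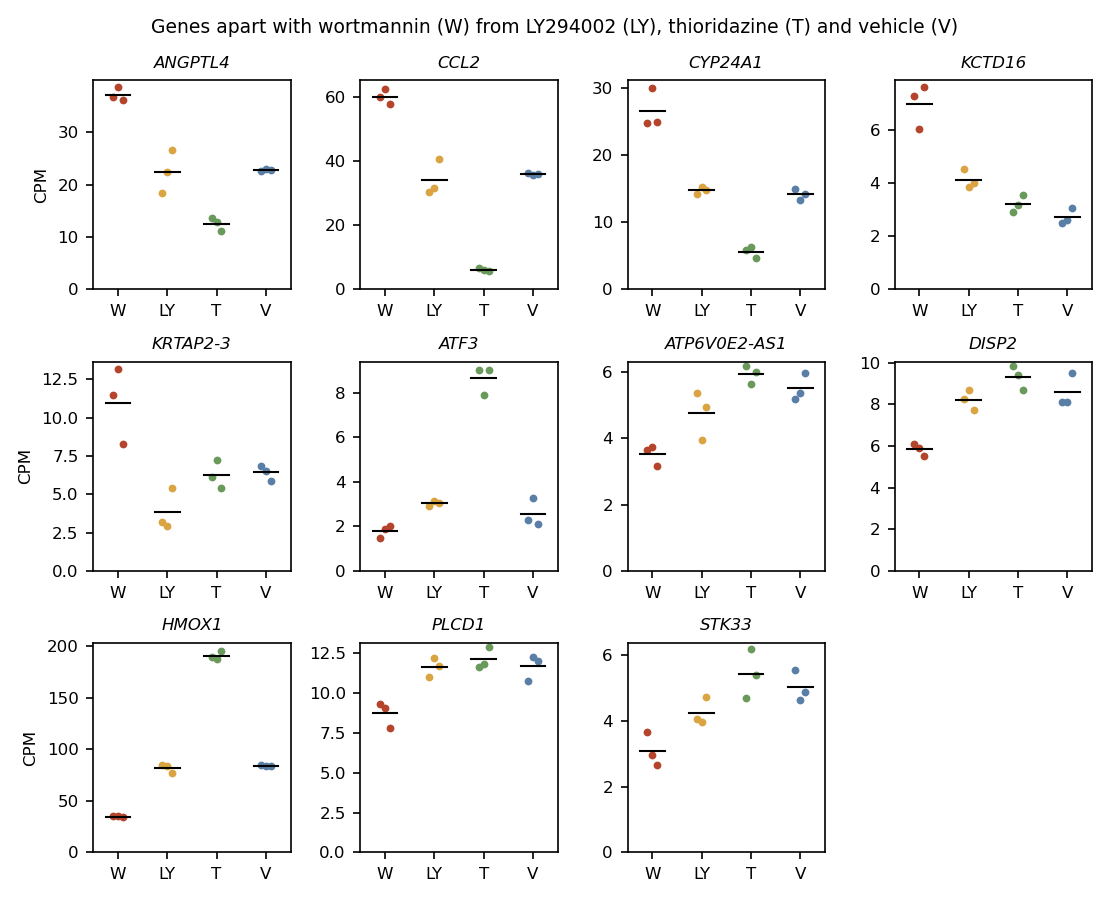
CPM (vertical axes, from 0) of 11 genes in the libraries of wortmannin (W), LY294002 (LY), thioridazine (T) and vehicle (V); each point is a library and each bar a group mean. The first 5 genes are higher and the last 6 lower with wortmannin than in each of the other 3 groups, as for CCL2 (59.97 CPM against 34.2, 6.19 and 36.0 CPM).

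Identity markers matched the astroglial label only in part. Of 16 astroglial markers 10 passed the filter, 1 rose, SLC1A3, and 1 fell, ALDOC (-0.35 ± 0.11), 20% called beside 31.7% of all genes. In edgeR on the 2 groups alone 3 rose and 4 fell, 2 rose without vehicle replicate 3, and 2 fell without wortmannin replicate 1 or vehicle replicate 2. The defining astrocyte genes GFAP, S100B and AQP4 were below the filter in both groups, at most 0.0778 CPM in a wortmannin library and 0.177 CPM in a vehicle library, and FABP7 was at 0 in all 6 libraries. The summed astroglial level was 8615 to 8807 CPM in wortmannin libraries and 8922 to 9316 CPM in vehicle libraries. GFAP, S100B, AQP4 and FABP7 add at most 0.177 CPM each to this sum, so it comes from other listed members. Mesenchymal markers, all 17 of which passed the filter, rose in 4 and fell in 7 cases, 64.7% called. They summed to 7042 to 7216 CPM in wortmannin libraries and 7694 to 7787 CPM in vehicle libraries. FAP, a fibroblast protease, rose (0.55 ± 0.04) and THY1 fell (-0.56 ± 0.05). Of 16 markers of other neural cells 7 passed the filter and 4 rose, 57.1% called, SNAP25, a synaptic fusion protein, at 35.3, 35.5 and 32.3 CPM in wortmannin libraries, against 21.4, 19.7 and 20.1 CPM in vehicle libraries (0.75 ± 0.06), while the neuronal gene DCX and the microglial gene AIF1 were at 0 in all 6 libraries. Of 15 markers of epithelial, blood and endothelial cells 7 passed the filter, 2 rose (1 without wortmannin replicate 2 or vehicle replicate 2) and 1 fell, 42.9% called. The T-cell gene CD3E and the globin gene HBB were at 0 in all 6 libraries.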

How the data were processed

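RNA of 60 SW1783 libraries was measured; per the labels, RNA with a RIN above 7 went into a strand-marking MGIEasy kit and was sequenced from both ends on the MGIseq system. The authors deposited expected counts, 1 value per gene and sample, whose totals differ between samples. Per the submitters' processing notes RSEM 1.3.3 and STAR 2.7.3a were used, with Trim Galore 0.6.5, FastQC 0.11.9 and the build GRCh38. The strand setting and annotation are not stated. Of 279 columns, 60 belong to the given samples and 219 were not used. Expected counts, 9.48% of them not whole at a tolerance of 1e-06, were rounded. Counts per library summed to 19446209 to 30870861.

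The low-count filter was filterByExpr (10 counts, 15 in total) in edgeR 4.0.16. After TMM scaling, the 60 libraries entered a single quasi-likelihood fit with a coefficient for each of 22 groups. The F-test was two-sided, with Benjamini-Hochberg adjustment over 17919 genes and a threshold of 0.05. The SE is the size of the log2 fold change divided by the square root of F. CPM are counts over TMM-scaled library sizes, with no pseudocount. On simulated data with 50 changed genes per fold and 17066 genes tested, 33, 45, 49 and 50 were recovered at folds of 1.25, 1.5, 2 and 4, with 9 unchanged genes called. Alternatives were RLE scaling, no filter, the replicate number as a block, the 2 groups alone, DESeq2 1.42.0, and leaving out each library in turn.

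Groups come from the labels. The genes described and 70 gene lists (1514 entries, of which 1513 were found) were chosen with earlier results of these data known. Named genes are the 12 largest rises and falls of at least 5 CPM with separate libraries and an informative symbol, up to 4 called members per list with the smallest p and at least 1 CPM, the PI3K, receptor, IGF, metallothionein and contractile lists, the 6 highest and 6 lowest genes apart from all 3 other groups, and cell type markers; MAP1LC3A, SQSTM1, NPM1, BOP1, HSPB1, ITGA2, ITGA5, TIMP1, CCN1, FST, ZFAS1, SNHG1, SNHG6, SNHG8, SNHG12, MYC, OAS3, TGFB3, INHBE, FSTL3 and THY1 were added after their values were seen. Some genes that meet the rule are not reported here. Promoter sequences are RefSeq's, on GRCh38.p14.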

Additional observations from a re-analysis of the deposited data

How the results depend on the processing

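The number of genes called against vehicle (5686) was 5686 with RLE scaling, 5049 with no filter on low counts, 7269 in edgeR on the 2 groups alone and 5397 by DESeq2, and 4789 to 4941 when each library was left out in turn. Genes lower at least 2-fold numbered 92 with no filter, against 51, and genes higher at least 2-fold 144 by DESeq2, against 205. Genes apart from all 3 other groups (396) numbered 256 to 370 when each library was left out, and those on the low side (134) 77 to 119, or 81 with no filter. No gene named and called, in the fit as reported or in the alternative, changed its direction under the alternatives run. Uncalled genes near 0 did, for example IGFBP2, at -0.036 without vehicle replicate 1, and ERBB2, at 0.008 without vehicle replicate 2. The main fit did not pair libraries by replicate number. Deviations of same-numbered wortmannin and vehicle libraries correlated at 0.019, 0.013 and 0.011, under the threshold of 0.1. For wortmannin and LY294002 the values were 0.01, 0.021 and -0.015, and for wortmannin and thioridazine -0.002, 0.042 and 0.045. Noise in each library lowers such correlations, so they do not exclude a pairing. With the number as a block 5769 genes were called, 2788 higher and 2981 lower. Depth limits genes of low count, and 3 libraries per group limit small changes.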
